A study of Homo sapiens with 6 samples.

Results

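Receptors for the classical neurotransmitters were followed in 2 human small cell lung cancer cell lines. H69 and H69M were each measured on 3 arrays. The members are the genes whose platform symbol names a subunit of a GABA-A, ionotropic glutamate, glycine or nicotinic acetylcholine receptor, or a metabotropic glutamate, muscarinic, serotonin, dopamine or adrenergic receptor. This rule found 94 of the 18404 genes that the platform annotation names by 1 symbol. All 94 had 1 probe set each, so the choice of the brightest probe set altered no member. The GABA-A genes named by a letter alone (GABRD, GABRE and GABRQ) were counted as subunit names. GRINA, GRIK1-AS1, GRIK1-AS2 and HTR7P1 begin with the same letters but name another protein, antisense RNAs and a pseudogene, and were left out.

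Both lines are cultured cells described in the labels only by line and cancer type; neither label names a treatment, an added gene or the way in which H69M was obtained. H69 is an established line of classic, neuroendocrine small cell lung cancer. Each probe set has a deposited log2 value from the RMA procedure, with no call of whether the gene was detected. Levels of different probe sets are not compared gene by gene here, but a gene's rank among all genes serves to mark and filter dim genes. A change is given as the log2 fold change, H69M minus H69, with its standard error (SE), and a gene is said to have risen or fallen where limma's Benjamini-Hochberg adjusted p over all 18404 genes was under 0.05. Whether the arrays of a line stand for separate cultures is not stated in the labels. A p-value here thus reflects only how far the 3 arrays of a line scatter, which may be no more than technical variation.

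Transmitter receptors come in a pair of forms. Ionotropic receptors are ion channels built from several subunits that open when glutamate, GABA, glycine, acetylcholine or serotonin binds, and the subunit mix sets which ions pass and how fast the channel closes. Metabotropic receptors are single proteins that pass the signal to G proteins: Gs raises cyclic AMP, Gi lowers it, and Gq releases calcium through phospholipase C. Small cell lung cancer cells share many genes with neurons and neuroendocrine cells, and nicotinic receptors in particular have long been studied in lung tumours because nicotine is a ligand.

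The arrays were similar in overall brightness, with medians over all probe sets between 6.43 and 6.48. Of the 9 neuroendocrine markers listed, 7 were measured, and 0 rose and 4 fell. NCAM1 (-1.35) and GRP (-1.07) changed furthest, SYP (-0.80) and INSM1 (-0.33) fell by less, and CHGA (-0.26), UCHL1 (0.12) and DLL3 (-0.066) did not pass. Of 10 fibroblast markers 8 rose and 0 fell, and their summed level, taken back to the linear scale, was 746 to 777 in the H69 arrays and 8799 to 11334 in the H69M arrays. Of 7 leukocyte markers 0 rose and 3 fell, and of 7 endothelial markers 3 rose, led by TEK (3.28), and 1 fell. Over all genes 44.2% passed, beside 57.1% of neuroendocrine, 80% of fibroblast, 42.9% of leukocyte and 57.1% of endothelial markers. Only 2 leukocyte and 2 endothelial markers had a mean at or above the 25th percentile of all genes. The fibroblast genes differed between the lines alongside every receptor change given here, and their part in those changes was not tested. With cell populations measured in bulk, fewer cells that express a gene and less RNA per cell cannot be told apart.

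About as many receptor genes changed as genes in general, but the changes were mostly falls. Of the 94 members 42 passed the threshold (44.7%, beside 44.2% of all genes), 12 higher in H69M (12.8%, beside 21.0%) and 30 lower (31.9%, beside 23.2%). At least 2-fold rises were found for 4 members (4.26%, beside 5.56% of all genes) and at least 2-fold falls for 9 (9.57%, beside 2.72%). In 47 of the 94 members every array of one line lay beyond every array of the other, 16 higher and 31 lower in H69M (55.8% of all genes were separated so). The median log2 fold change was -0.10 over the members and -0.041 over all genes. The largest fall was in GRIK3 (-2.29) and the largest rise in ADRA1D (1.79). Many members lay low on the arrays: 54 of 94 had a mean at or above the 25th percentile of all genes and 20 at or above the median. Of the 40 members below the 25th percentile 6 rose (CHRNA9, DRD1, GABRR1, GLRA1, HTR1F and HTR2B). Another 6 fell (CHRNB3, GRIA3, GRIK1, GRIN2B, HTR1A and HTR4), so each direction made up 15%. The share over all genes below that percentile was not taken.

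**Figure D1:**
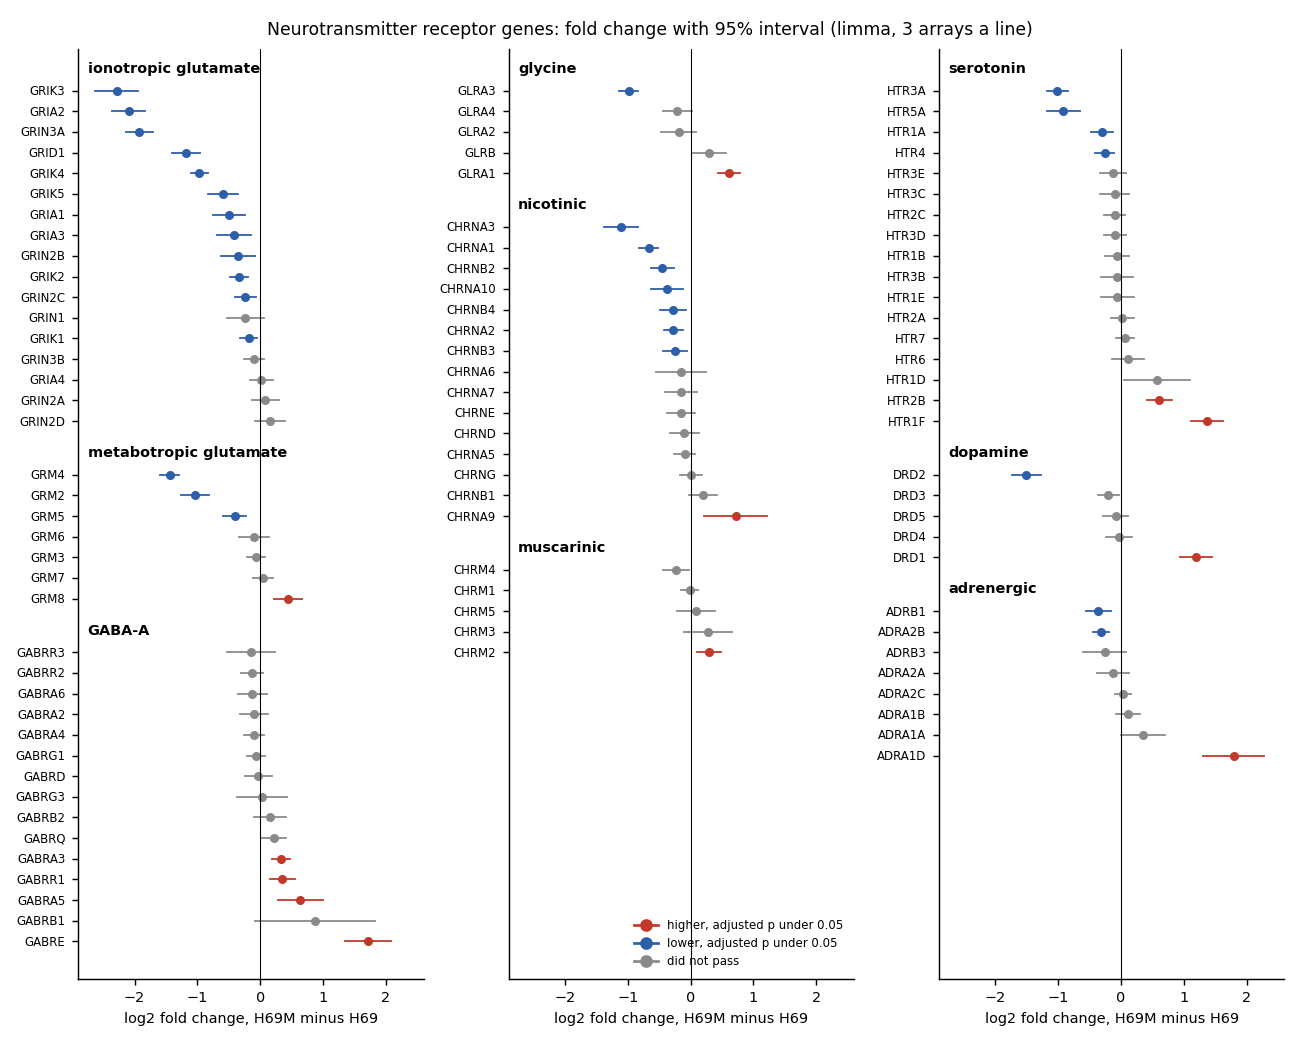
Log2 fold change, H69M minus H69, of each of the 94 members (points) with its 95% interval (lines), by receptor family; red and blue mark genes past the adjusted p threshold and grey those that did not pass. The glutamate families hold most of the long blue intervals, from -2.29 in GRIK3 and -1.44 in GRM4, while red points in the GABA-A family end at 1.72 in GABRE.

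The families differed in how many genes passed in each direction. Ionotropic glutamate receptors had 12 falls and 0 rises among 17 genes, metabotropic glutamate receptors 3 falls and 1 rise among 7, and nicotinic receptors 7 falls and 1 rise among 15. GABA-A receptors had 4 rises and 0 falls among 15. Serotonin receptors had 2 rises and 4 falls among 17, glycine receptors 1 of each among 5, dopamine receptors 1 of each among 5, adrenergic receptors 1 rise and 2 falls among 8, and muscarinic receptors 1 rise and 0 falls among 5. Over all genes 21.0% rose and 23.2% fell, and the falls among serotonin (23.5%) and adrenergic receptors (25%) lay near that share. Rises among GABA-A receptors (26.7%) and among glycine, dopamine and muscarinic receptors (20% each) also lay near the share over all genes. The difference between families was not tested. By mechanism, 6 of 57 channel subunits rose (10.5%) and 21 fell (36.8%). Of 37 G protein-coupled members 6 rose (16.2%) and 9 fell (24.3%), the falls near the share over all genes. Among these G protein-coupled members, 3 of 20 Gi-coupled genes rose and 6 fell, 2 of 10 Gq-coupled genes rose and 1 fell, and 1 of 7 Gs-coupled genes rose and 2 fell.

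**Figure D2:**
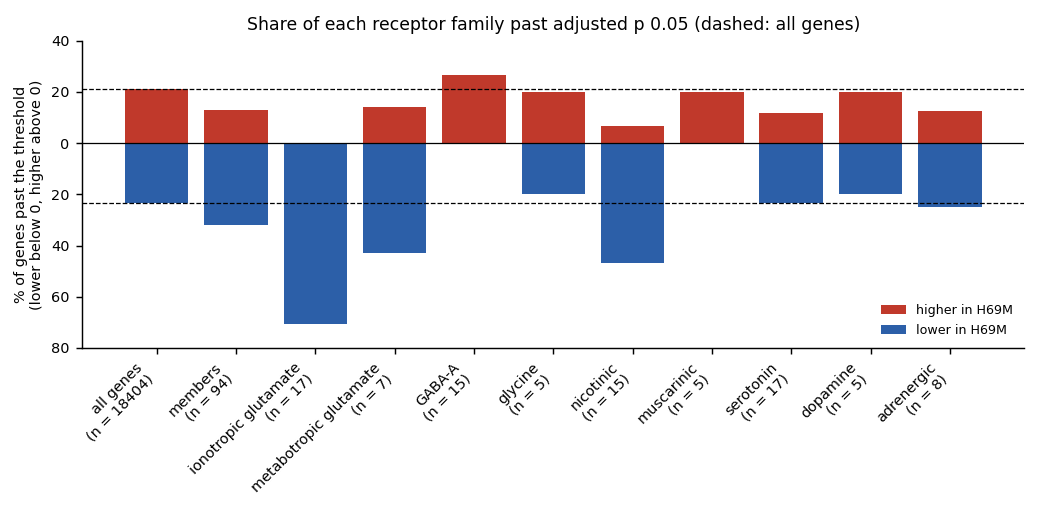
Percentage of the genes of each receptor family, of all members and of all genes (n under each bar) that passed the adjusted p threshold, with rises drawn above 0 and falls below 0; the dashed lines are the shares over all 18404 genes, 21.0% and 23.2%. Ionotropic glutamate receptors reach 70.6% on the side of falls with no rise. The GABA-A bar lies on the side of rises alone (26.7%, near the dashed line at 21.0%).

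Genes for ionotropic glutamate receptors fell in every subfamily. All 5 kainate receptor genes fell, as did 3 of 4 AMPA receptor genes, 3 of 7 NMDA receptor genes and the delta receptor gene GRID1, with a family median of -0.36. The count of 12 falls became 9 with the arrays centred on their medians and 8 without H69M replicate 2. Among the 12, GRIK1, GRIA3 and GRIN2B had means below the 25th percentile of all genes. With genes below it left out, 9 of 13 fell. No member of the family rose under any alternative run. GRIK3, which encodes the kainate receptor subunit GluK3 (probe set 7914974), stood at 9.70, 9.78 and 9.61 in H69 and 7.72, 7.43 and 7.07 in H69M (log2). All H69M arrays lay far under all H69 arrays, and the log2 fold change was -2.29 ± 0.15 (SE), a level 4.89-fold lower in H69M (Benjamini-Hochberg adjusted p = 1.11e-05 by limma). GRIA2 encodes GluA2, the AMPA receptor subunit that keeps calcium out of the channel (probe set 8098021), and its values were 9.53, 9.47 and 9.77 in H69 and 7.70, 7.36 and 7.43 in H69M. The lines did not overlap, with a log2 fold change of -2.09 ± 0.11 (4.27-fold lower, Benjamini-Hochberg adjusted p = 3.92e-06 by limma).

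GRIN3A, which encodes GluN3A, an NMDA receptor subunit that lowers calcium entry (probe set 8162908), had 7.82, 7.85 and 7.91 in H69 and 5.87, 6.13 and 5.81 in H69M, again with a clear gap between the lines. Its log2 fold change was -1.92 ± 0.090 (3.79-fold lower, Benjamini-Hochberg adjusted p = 2.04e-06 by limma). GRID1 encodes the delta receptor GluD1, a synapse organiser that binds cerebellins. Its arrays read 8.97, 9.01 and 8.95 in H69 and 7.96, 7.85 and 7.57 in H69M (probe set 7934789), with H69M replicate 3 the lowest, and the log2 fold change was -1.18 ± 0.098 (2.27-fold lower, Benjamini-Hochberg adjusted p = 4.00e-05 by limma). Under 2-fold, the kainate genes GRIK4 (-0.97 ± 0.060), from 6.86 ± 0.0082 to 5.89 ± 0.074 (SD, n = 3), and GRIK5 (-0.59 ± 0.10), from 8.05 ± 0.11 to 7.46 ± 0.19, fell. Both encode the high-affinity kainate subunits that need a partner such as GluK3 to form a channel. The other falls were smaller, -0.50 in GRIA1 and -0.41 in GRIA3 for AMPA receptors, -0.36 in GRIN2B and -0.24 in GRIN2C for NMDA receptors, and -0.34 in GRIK2 and -0.18 in GRIK1 for kainate receptors. The obligatory NMDA receptor subunit gene GRIN1 had -0.24 (95% interval -0.53 to 0.060) and did not pass, and GRIN2A, GRIN2D, GRIN3B and GRIA4 lay between -0.10 and 0.15 without passing. Calls for GRIK1, GRIN2B, GRIN2C and GRIA3 were lost under 9, 7, 7 and 2 of the alternatives.

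REST, a repressor that binds the RE1 element of neuronal genes, is shown here beside the promoter sequences because GRIA2 is a textbook RE1 gene. REST stood at 4.73, 4.99 and 4.83 in H69 and 7.56, 8.02 and 8.19 in H69M, a rise of 3.07 ± 0.15 (log2, SE; Benjamini-Hochberg adjusted p = 2.98e-06 by limma). RefSeq windows from 250 bases before to 50 bases after a transcript start (GRCh38.p14) were searched on both strands for the longer and the shorter segment of RE1, TTCAGCACC and GGACAGC, which do not overlap each other in the element. These letters were chosen after the values had been seen. Windows were found for 73 of the 94 members. Counted by window, since a gene can have several, TTCAGCACC was in 3 of 101 windows of members, those of GRIA2, GRM2 and DRD3, and in 132 of all 34943 windows (0.378%). GGACAGC was in 13 windows of members and in 2108 of all windows (6.03%). Both segments on the same strand with 2 bases between them, the spacing of the full element, occurred in 3 windows of all and in 1 of the members, GRIA2. The 250 bases before the start of those 3 genes follow, for the start whose window held the match (GRIA2 has 3 windows, DRD3 2 and GRM2 1), with the matched segments in capitals, so that the arrangement in a gene 4.27-fold lower can be set beside the others.
GRIA2, chr4:157220369-157220618, plus strand: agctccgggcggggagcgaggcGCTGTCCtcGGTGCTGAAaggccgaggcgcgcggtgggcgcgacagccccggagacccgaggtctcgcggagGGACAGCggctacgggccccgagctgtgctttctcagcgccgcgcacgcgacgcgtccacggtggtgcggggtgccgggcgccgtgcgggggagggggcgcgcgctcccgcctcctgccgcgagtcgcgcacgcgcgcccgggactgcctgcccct
GRM2, chr3:51706818-51707067, plus strand: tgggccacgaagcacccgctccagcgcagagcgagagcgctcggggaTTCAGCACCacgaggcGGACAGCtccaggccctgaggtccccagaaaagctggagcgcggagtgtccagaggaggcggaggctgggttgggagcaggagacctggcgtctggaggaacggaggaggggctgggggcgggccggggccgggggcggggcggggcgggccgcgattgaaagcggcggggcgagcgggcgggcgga
DRD3, chr3:114178777-114179026, minus strand: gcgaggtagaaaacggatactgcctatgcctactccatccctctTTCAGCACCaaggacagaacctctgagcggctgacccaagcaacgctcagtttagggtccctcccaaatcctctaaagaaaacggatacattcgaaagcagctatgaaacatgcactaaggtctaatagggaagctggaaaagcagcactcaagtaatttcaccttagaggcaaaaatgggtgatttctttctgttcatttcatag

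In GRIA2 the segments read on the opposite strand, as GCTGTCC from 228 to 222 and GGTGCTGAA from 219 to 211 bases before the start, and a further GGACAGC lay from 156 to 150 bases before it. GRM2 had both segments on the plus strand, 203 to 195 and 187 to 181 bases before the start, with 7 bases between them. DRD3 held an exact match to the longer segment only, 206 to 198 bases before the start. At the spacing of the full element it was followed by ggacaga, which differs from the shorter segment in its last letter. The fold changes of these genes were -2.09 in GRIA2, -1.04 in GRM2 and -0.20 in DRD3, and the last did not pass. The shorter segment alone was found in windows of further members. Of these HTR5A fell, GABRR1 rose, and CHRM5, CHRNB1, GABRG3, GABRQ, GLRA2, GLRB, GRM3 and HTR7 did not pass. GRIK3, GRIN3A, GRM4 and DRD2 fell further than GRM2 and were not among the matches, though not every member had a window. Each match is of letters alone, and whether REST bears on these levels was not tested.

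Metabotropic glutamate receptor genes were lower in H69M in part. GRM4, a Gi-coupled presynaptic receptor (probe set 8125805), stood at 8.91, 8.94 and 8.91 in H69 and 7.52, 7.37 and 7.54 in H69M. The arrays within each line lay close together and the lines were well apart, with a log2 fold change of -1.44 ± 0.064 (2.72-fold lower, Benjamini-Hochberg adjusted p = 1.57e-06 by limma). GRM2, another Gi-coupled presynaptic receptor (probe set 8080128), had 6.62, 6.84 and 6.52 in H69 and 5.75, 5.51 and 5.60 in H69M. It fell by 1.04 on the log2 scale with no overlap between the lines (2.06-fold lower, Benjamini-Hochberg adjusted p = 7.95e-05 by limma). The Gq-coupled GRM5 fell by 0.41. In the other direction GRM8, of the same subgroup as GRM4, rose by 0.44 ± 0.096, and GRM3, GRM6 and GRM7 lay between -0.10 and 0.045 and did not pass.

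**Figure D3:**
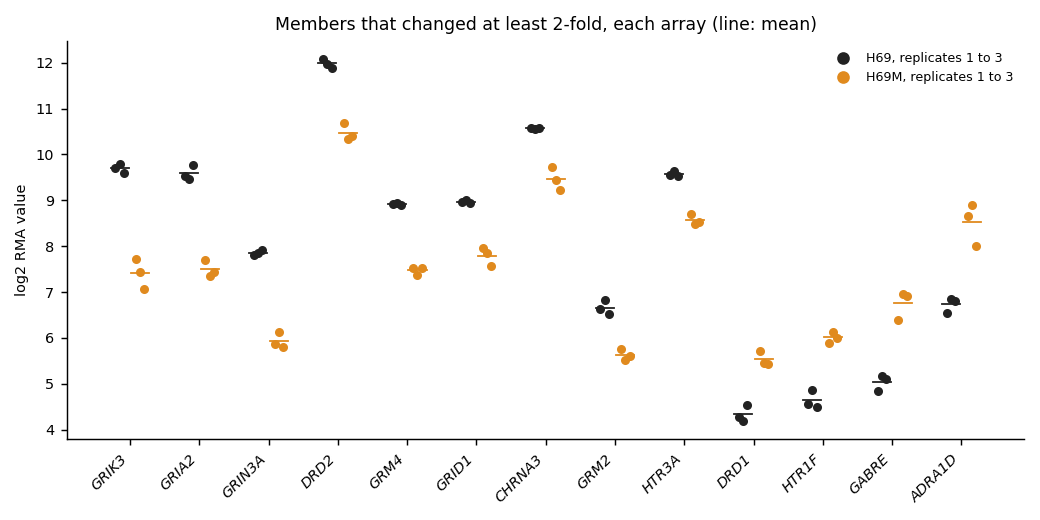
Log2 RMA value on each array of H69 (black) and H69M (orange) for the 13 members that passed the threshold and changed at least 2-fold, ordered by fold change, with a line at the mean of 3 arrays. The black and orange points are apart in all 13, from the fall of -2.29 in GRIK3 at the left to the rise of 1.79 in ADRA1D at the right.

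GABA-A receptor genes, which encode chloride channels, rose where they passed in the main fit. The 4 rises among 15 genes (26.7%) lay near the 21.0% of all genes that rose. GABRE, the epsilon subunit (probe set 8175666), stood at 4.85, 5.17 and 5.11 in H69 and 6.39, 6.97 and 6.92 in H69M. The H69M arrays were all higher, with replicate 1 the lowest of them, and the log2 fold change was 1.72 ± 0.16 (3.28-fold higher, Benjamini-Hochberg adjusted p = 7.63e-05 by limma). GABRA5, the alpha 5 subunit of receptors outside the synapse, went from 6.39 ± 0.23 to 7.03 ± 0.26 (SD, n = 3), a rise of 0.64 ± 0.16 (log2, SE; Benjamini-Hochberg adjusted p = 0.0111 by limma). GABRR1, which encodes the rho 1 subunit known from the retina, rose by 0.35 and GABRA3, the alpha 3 subunit, by 0.33. GABRB1, the beta 1 subunit, had the values 4.05, 3.87 and 3.94 in H69 and 4.26, 4.25 and 5.95 in H69M. H69M replicate 3 stood far above the others, and the difference of 0.87 did not pass (Benjamini-Hochberg adjusted p = 0.128 by limma); without that array it was 0.30 and passed (Benjamini-Hochberg adjusted p = 0.017 by limma). The other 10 genes lay between -0.15 in GABRR3 and 0.22 in GABRQ and did not pass. Of these, GABRR2 passed with a fall without H69M replicate 1 (-0.20, Benjamini-Hochberg adjusted p = 0.0344 by limma). GABRQ passed with a rise under 3 alternatives and GABRG3 under 1.

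Glycine receptor genes moved in both directions. GLRA3, an alpha subunit of spinal inhibitory receptors (probe set 8103778), stood at 7.18, 7.19 and 7.07 in H69 and 6.23, 6.15 and 6.10 in H69M. There was no overlap, and it fell by 0.99 on the log2 scale (1.98-fold lower, Benjamini-Hochberg adjusted p = 1.05e-05 by limma). GLRA1, the alpha subunit altered in hereditary startle disease, rose from 4.94 ± 0.085 to 5.55 ± 0.11 (SD, n = 3), by 0.61 ± 0.078 (log2, SE). GLRB, the beta subunit that ties the receptor to its scaffold gephyrin, had 0.29 (95% interval 0.018 to 0.56) and did not pass, nor did GLRA2 (-0.19) and GLRA4 (-0.21).

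Among nicotinic acetylcholine receptor genes, which encode cation channels, the falls outnumbered the single rise. Of 10 neuronal subunit genes 6 fell and 1 rose, and of 5 muscle subunit genes 1 fell and 0 rose. The 7 falls in all became 4 without the second H69 array, 4 without the second H69M array and 4 without the third H69M array. CHRNA3, the alpha 3 subunit of autonomic ganglia (probe set 7990714), stood at 10.59, 10.56 and 10.58 in H69 and 9.73, 9.45 and 9.22 in H69M. The H69 arrays were nearly equal and every H69M array was lower, with a log2 fold change of -1.11 ± 0.12 (2.16-fold lower, Benjamini-Hochberg adjusted p = 0.000151 by limma). The muscle gene CHRNA1 fell by 0.67, from 6.03 ± 0.054 to 5.36 ± 0.090 (SD, n = 3), and CHRNB2, the main beta subunit of brain receptors, by 0.45. CHRNA10 (-0.38), CHRNB4 (-0.28), CHRNA2 (-0.28) and CHRNB3 (-0.25) fell by less. The CHRNB3 call was lost under 10 of the 13 alternatives that tested it, among them centred arrays and the variance trend, and those of CHRNA10 and CHRNB4 under 4 each, all of which left out 1 array. CHRNA9, which pairs with CHRNA10 in the inner ear, rose by 0.71 ± 0.22 (log2, SE; Benjamini-Hochberg adjusted p = 0.0289 by limma); its arrays read 4.36, 4.74 and 4.68 in H69 and 5.51, 5.63 and 4.78 in H69M, where the lowest H69M array nearly met the highest H69 array, and the call was lost under 4 alternatives that left out 1 array each. CHRNA7, the alpha 7 subunit, had -0.16 and did not pass; its gene has a near copy in CHRFAM7A, so its probe set may read both. The 6 remaining genes, CHRNA5, CHRNA6, CHRNB1, CHRND, CHRNE and CHRNG, lay between -0.16 and 0.19 and did not pass.

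Of the muscarinic receptor genes, CHRM2, the Gi-coupled receptor of the heart (probe set 8136448), passed, at 5.75, 5.69 and 5.86 in H69 and 6.19, 6.06 and 5.94 in H69M. The lines were separate by a narrow gap, with a rise of 0.29 ± 0.081 (log2, SE; Benjamini-Hochberg adjusted p = 0.0200 by limma) that lost its call in 4 of the 6 fits that left out an array (adjusted p from 0.0510 to 0.0720 by limma with Benjamini-Hochberg adjustment). CHRM4, also coupled to Gi, had -0.23 (Benjamini-Hochberg adjusted p = 0.0637 by limma) and passed under 8 alternatives. CHRM1, CHRM3 and CHRM5, all coupled to Gq, lay between -0.016 and 0.27 and did not pass.

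Serotonin receptor genes included an ion channel subunit that fell and Gi- and Gq-coupled receptors that rose. HTR3A, the subunit that every serotonin-gated channel needs (probe set 7943969), stood at 9.56, 9.65 and 9.53 in H69 and 8.70, 8.48 and 8.52 in H69M. No H69M array reached the lowest H69 array, and the log2 fold change was -1.01 ± 0.075 (2.02-fold lower, Benjamini-Hochberg adjusted p = 2.16e-05 by limma). The other channel subunit genes HTR3B, HTR3C, HTR3D and HTR3E lay between -0.13 and -0.064 and did not pass. HTR1F, a Gi-coupled receptor (probe set 8081067), had 4.56, 4.86 and 4.50 in H69 and 5.90, 6.13 and 6.004 in H69M. It was higher on all H69M arrays, by 1.37 ± 0.11 (2.58-fold, Benjamini-Hochberg adjusted p = 2.89e-05 by limma).

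HTR2B, a Gq-coupled receptor, rose from 3.91 ± 0.14 to 4.52 ± 0.087 (SD, n = 3), by 0.61. HTR5A, coupled to Gi, fell from 6.16 ± 0.13 to 5.25 ± 0.20, by 0.92 on the log2 scale. HTR1A, a Gi-coupled autoreceptor of serotonin neurons, fell by 0.30 (a call lost without H69 replicate 1) and the Gs-coupled HTR4 by 0.26. HTR1D, a Gi-coupled target of migraine drugs, had 7.57, 7.43 and 7.13 in H69 and 7.61, 7.73 and 8.50 in H69M, with H69M replicate 3 far above the rest; its difference of 0.57 did not pass (Benjamini-Hochberg adjusted p = 0.0780 by limma). The remaining 6 genes, HTR1B, HTR1E, HTR2A, HTR2C, HTR6 and HTR7, lay between -0.10 and 0.11 and did not pass.

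The main Gi- and Gs-coupled dopamine receptor genes moved in opposite directions. DRD2, the Gi-coupled receptor blocked by antipsychotic drugs (probe set 7951703), stood at 12.08, 11.98 and 11.89 in H69 and 10.68, 10.33 and 10.41 in H69M. All H69M arrays were lower, with a log2 fold change of -1.51 ± 0.099 (2.85-fold lower, Benjamini-Hochberg adjusted p = 1.11e-05 by limma). DRD1, the Gs-coupled receptor (probe set 8115875), had 4.29, 4.19 and 4.53 in H69 and 5.71, 5.46 and 5.44 in H69M. Its H69M arrays were all higher, by 1.20 ± 0.11 (2.30-fold, Benjamini-Hochberg adjusted p = 7.00e-05 by limma), although its mean over the 6 arrays lay below the 25th percentile of all genes, as did that of HTR1F. DRD3 (-0.20), DRD4 (-0.034) and DRD5 (-0.089) did not pass.

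ADRA1D, a Gq-coupled adrenergic receptor of smooth muscle (probe set 8064779), rose furthest of all members, with 6.55, 6.85 and 6.81 in H69 and 8.66, 8.90 and 8.01 in H69M. Every H69M array was higher, and the log2 fold change was 1.79 ± 0.21 (3.46-fold, Benjamini-Hochberg adjusted p = 0.000261 by limma). The related ADRA1A (0.35, 95% interval 0.0062 to 0.70) and ADRA1B (0.11) did not pass. ADRB1, the Gs-coupled receptor of the heart, fell by 0.36 and the Gi-coupled ADRA2B by 0.32. ADRA2A, ADRA2C and ADRB3 lay between -0.26 and 0.032 and did not pass.

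Several receptor subunits lie side by side on chromosomes, and fold changes within a cluster were unlike in some clusters and alike in others. In RefSeq, CHRNA5, CHRNA3 and CHRNB4 follow each other on chromosome 15 with 0 other protein-coding genes between them, and the spans of CHRNA5 and CHRNA3 overlap. CHRNA3 fell by 1.11, CHRNB4 by 0.28 (a call lost under 4 of 15 alternatives), and CHRNA5, an accessory subunit, had -0.096 (95% interval -0.26 to 0.071) and did not pass. Within each array, CHRNA3 minus CHRNA5 was -0.058, -0.12 and -0.11 in H69 and -0.96, -1.13 and -1.23 in H69M (difference of means -1.01). HTR3A minus HTR3B, neighbours on chromosome 11, differed by -0.95 and GABRE minus GABRA3, on chromosome X with 2 protein-coding genes between them, by 1.39. These pairs were picked because 1 gene of each was seen to change, so their differences are a description with no test. HTR3B was dim in both lines (means 3.82 in H69 and 3.75 in H69M), so a fall of it could hardly be seen. A difference of levels between probe sets has no meaning by itself, and only its change between the lines is read here. GABRQ, next to GABRA3, had 0.22, and GABRG3, next to GABRA5 on chromosome 15, 0.022. On chromosome 4, GABRG1, GABRA2 and GABRA4 had -0.062, -0.10 and -0.099 beside GABRB1, and on chromosome 6 GABRR2 had -0.13 beside the rise of GABRR1. CHRND (-0.10 ± 0.098, SE) and CHRNG (0.0013 ± 0.077) on chromosome 2 did not pass, nor did GABRB2 (0.16 ± 0.11) and GABRA6 (-0.13 ± 0.10) on chromosome 5. On chromosome 8, CHRNB3 (-0.25 ± 0.083) and CHRNA6 (-0.16 ± 0.17) differed by less than the SE of CHRNA6. The means of HTR3B, GABRG3, GABRG1, GABRA2, GABRA4, GABRB1, GABRB2, GABRA6, GABRR1, CHRNB3 and CHRNA6 lay below the 25th percentile of all genes. Whether a cluster is alike or unlike is thus poorly measured where it rests on these genes.

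**Figure D4:**
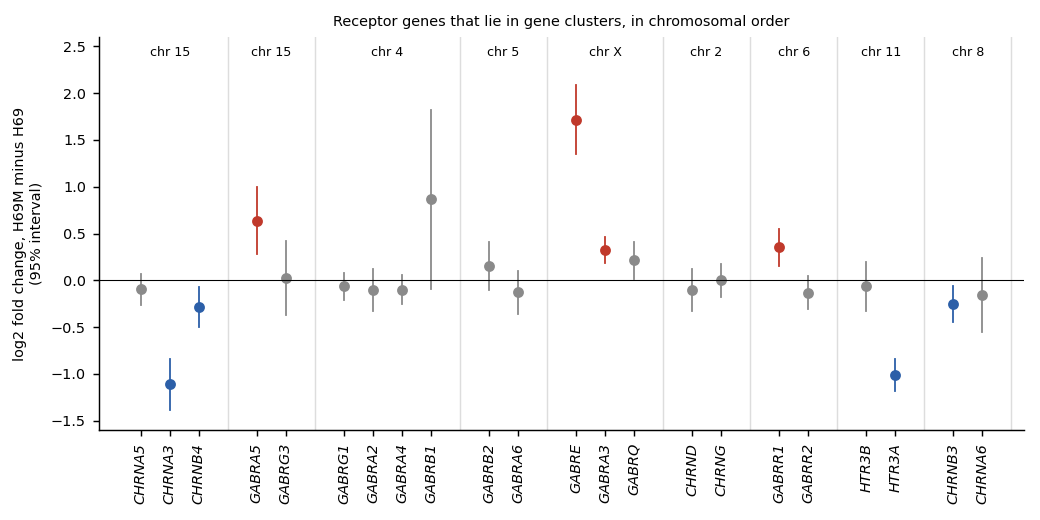
Log2 fold change, H69M minus H69, with its 95% interval for the measured receptor genes of 9 gene clusters, drawn in chromosomal order and not to scale; red marks rises and blue falls past the threshold, and grey genes did not pass. CHRNA3 at -1.11 lies beside CHRNA5 at -0.096, HTR3A at -1.01 beside HTR3B at -0.064, and GABRE at 1.72 beside GABRA3 at 0.33. HTR3B had a mean below the 25th percentile of all genes.

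Genes that make, carry or remove the transmitters were counted in the same way. Over all genes 21.0% rose, 23.2% fell and 44.2% passed in all. The share that passed was 50% in the GABA list, 66.7% in the glutamate list, 53.8% in the monoamine list and 66.7% in the glycine list. In the list for GABA synthesis, transport and GABA-B receptors, 1 of 10 measured genes rose and 4 fell (median -0.083). GAD2 (-1.52 ± 0.094) and GAD1 (-1.08 ± 0.10), the enzymes that make GABA, fell, and ABAT, which breaks GABA down, rose by 1.96 ± 0.11. Of the glutamate transport and metabolism genes, 1 of 9 measured genes rose and 5 fell (median -0.24). The vesicular glutamate transporter genes SLC17A8 (-2.06 ± 0.12) and SLC17A6 (-1.46 ± 0.070) and the uptake transporter gene SLC1A2 (-1.48 ± 0.097) fell. For monoamines, 1 of 13 measured genes rose and 6 fell (median -0.14): TPH1, the first enzyme of serotonin synthesis outside the brain (-1.93 ± 0.13), the vesicular monoamine transporter gene SLC18A1 (-1.48 ± 0.096) and the dopamine transporter gene SLC6A3 (-0.96 ± 0.092) were lower. For glycine, 1 of 6 measured genes rose and 3 fell (median -0.15), with the transporter genes SLC6A5 (-1.04) and SLC6A9 (-0.57) lower and GLDC, of the glycine cleavage system, higher (1.26).

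The list of acetylcholine enzymes and nicotinic receptor partners held the largest single change of these lists. SLC5A7, the transporter that takes up choline for acetylcholine synthesis, stood at 4.11, 3.80 and 3.70 in H69 and 7.93, 8.32 and 8.79 in H69M. All H69M arrays were far above H69, by 4.48 ± 0.21 (log2, SE; 22.3-fold, Benjamini-Hochberg adjusted p = 1.83e-06 by limma). In this list 3 of 19 measured genes rose and 7 fell (median -0.082), so that 52.6% passed, beside 44.2% of all genes. PRIMA1, which anchors acetylcholinesterase in the membrane, fell by 1.41 and RIC3, a chaperone of nicotinic receptors, by 0.93. CHAT, the enzyme that makes acetylcholine, fell by 0.50; it was named after its values had been seen.

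Receptor scaffolds and auxiliary subunits changed in both directions. Of the glutamate receptor partners, 7 of 31 measured genes rose and 12 fell (median -0.12). NETO1, an auxiliary subunit of kainate receptors, stood at 4.41, 4.14 and 4.22 in H69 and 7.77, 7.87 and 8.11 in H69M, and its H69M arrays were all far higher (3.66 ± 0.11, Benjamini-Hochberg adjusted p = 2.31e-07 by limma), while the kainate subunit genes themselves fell. HOMER1, a scaffold that links metabotropic glutamate receptors to calcium stores, rose by 2.07 ± 0.067, and the postsynaptic scaffold gene DLG2 fell by 1.31. Of the inhibitory synapse scaffolds, 4 of 9 measured genes rose and 2 fell (median -0.047). GPHN, which encodes gephyrin, the scaffold of glycine and GABA-A receptors, stood at 5.19, 5.02 and 5.33 in H69 and 6.94, 7.33 and 7.36 in H69M and rose by 2.03 ± 0.13 (Benjamini-Hochberg adjusted p = 8.86e-06 by limma). NLGN2, the neuroligin of inhibitory synapses, rose by 1.10 and the transport adaptor gene TRAK2 by 0.69. Among G proteins and effectors, 12 of 30 measured genes rose and 11 fell (median 0.063). The adenylate cyclase gene ADCY1 fell by 2.84, another, ADCY2, rose by 1.60, and GRK3, a receptor kinase, fell by 1.71. In the order given, 61.3%, 66.7% and 76.7% of these lists passed. Over all genes the median was -0.041 and 44.2% passed, and nothing is claimed here to be particular to a list.

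**Figure D5:**
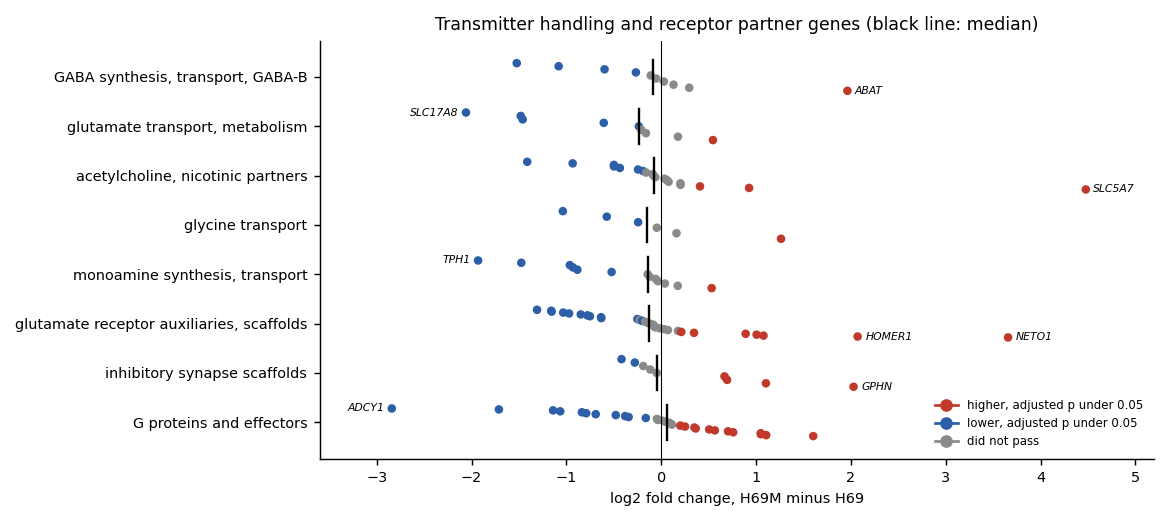
Log2 fold change, H69M minus H69, of each measured gene of 8 lists of transmitter handling and receptor partner genes (points, spread vertically within a list for legibility; red higher and blue lower past the threshold, grey did not pass), with the median of each list as a black line. The medians lie between -0.24 and 0.063, with SLC5A7 (4.48), NETO1 (3.66) and HOMER1 (2.07) far to the right and ADCY1 (-2.84) far to the left.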

How the data were processed

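Total RNA for 6 arrays (3 of H69, 3 of H69M) was amplified and labelled as sense targets, per the labels' protocols. The authors deposited log2 values, 1 per probe set and array. RMA and limma appear in the submitters' processing notes, with no version. The program that ran RMA was not given in the sources used here, nor was a genome build. RMA as commonly run corrects background, applies quantile normalization and summarises probes, which compresses the folds of dim genes.

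From 32321 probe sets, the 18404 genes with 1 symbol were kept, each by its probe set of highest mean. H69M was compared with H69 by limma 3.58.1 in R 4.3.3 (lmFit, eBayes, two-sided, group as the only term), with Benjamini-Hochberg adjustment over all those genes. Python 3.11.15 with pandas 2.3.3 and matplotlib 3.10.9 made the summaries and plots. RefSeq (GRCh38.p14), matched by Entrez ID for all 94 members, gave gene order and promoter windows. The code was tested on simulated data. The fit was repeated under 15 alternatives, and the counts were also taken without GABRD, GABRE and GABRQ. The members and the gene lists were chosen with earlier results of these data known.

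By the naming rule, values on every array are given for members past the threshold with a log2 change of at least 1 and for the largest called change of each family, group values for called members from 0.5, fold changes for the rest, and up to 3 called genes per list. Precision is limited by the number of arrays: a member's log2 fold change had a standard error of 0.093 at the median.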

Additional observations from a re-analysis of the deposited data

Results flagged for a closer look

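A probe set that the platform annotation gives to both MIR224 and GABRE, and which no comparison used because it names more than 1 gene, was higher in H69M. Its log2 values were 2.71, 2.68 and 2.96 in H69 and 3.19, 3.66 and 3.39 in H69M, a log2 fold change of 0.625 (Benjamini-Hochberg adjusted p = 0.0147 by limma, in a fit over all probe sets). All these values lay below 5.58, the 25th percentile of all genes, so the probe set may read little above background. MIR224 lies within GABRE, and which of the transcripts the probe set reads was not tested. It was the only one of the 7 probe sets pairing a member's symbol with another symbol that passed the threshold with a rise. Of the 4 probe sets shared by DRD5 and its pseudogene copy DRD5P2, 3 fell, while the probe set of DRD5 alone did not pass.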

How the results depend on the processing

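Leaving out dim genes left fewer members to test: 54 without genes under the 25th percentile and 20 without genes under the median. Rises went from 12 to 6 and 4, rises of at least 2-fold from 4 to 2 and 1, and falls from 30 to 25 and 14. With the 25th percentile filter 57.4% of members and 55.7% of all genes passed, and with the median filter 90% and 63.8%. Rises made up 19.4% and 22.2% of these calls among members, beside 47.2% and 46.3% among all genes. The median log2 fold change of members went from -0.10 to -0.13 and -0.41 with these filters, to -0.073 with centred arrays and to -0.055 with a repeated quantile normalization. With 1 array left out at a time, rises numbered 10 to 15, falls 23 to 30 and falls of at least 2-fold 7 to 10, and the median lay between -0.158, without H69M replicate 1, and -0.078, without H69M replicate 2. The 13 members with changes of at least 2-fold kept their calls under each alternative that tested them (highest Benjamini-Hochberg adjusted p = 0.00183 by limma, in ADRA1D), though CHRNA3, GRM2 and HTR3A fell short of 2-fold in some. Deviations from the line mean correlated by only 0.0072 to 0.021 between same-numbered arrays, which cannot show whether these arrays share a culture or batch. With the replicate block, 13 members rose and 28 fell, 39 of 42 calls remained, 3 were lost and 2 were gained. The cause of the other shifts was not tested.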
